A study of Mus musculus with 2 samples.

Results

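Semaphorins and their receptors were followed through 8 genes, Sema3a, Sema3b, Sema3c, Sema3d, Nrp1, Nrp2, Plxna1 and Plxnd1, of the 27998 genes in the count tables. The genes were chosen by name, with earlier results of these data known, and all 8 were present in both tables and detected in both libraries. Single-cell RNA sequencing had been done on cells released from limb tendons of mouse pups at postnatal day 7, with 1 library for each of the labels wild-type and mutant. A library was a single pool of fore- and hindlimb tendons of 2 pups, so no value has a spread between replicates. In the mutant the type II TGFβ receptor gene Tgfbr2 was deleted from a floxed allele over a null allele by ScxCre, a Cre driven by the tendon gene Scx whose activity in the embryo does not reach all tendon cells at once. The library used as wild-type carries that name in its title and genotype, while its description calls it a heterozygote, and which of these holds cannot be told apart here. According to the study's methods, the mice also carried the ScxGFP reporter and the Ai14 tdTomato Cre reporter. The tendon surface was not scraped away before the cells were released, so cells of the surrounding sheath were collected as well. The study sequenced these cells to profile mutant tendon cells, which it described as dedifferentiated, beside wild-type tenocytes.

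Semaphorins of class 3 are secreted guidance proteins, best known for repelling or attracting axons and for patterning blood vessels. They bind neuropilins (Nrp1 and Nrp2), which have short cytoplasmic tails, and the signal enters the cell through a plexin partner, usually a class A plexin such as Plxna1 or, for some ligands, Plxnd1. Plexins switch off small Ras-type GTPases and loosen the cytoskeleton and integrin contacts, and neuropilins also serve as co-receptors for vascular endothelial growth factors. Tendon is a tissue with few vessels and nerves, both of which run mainly in its sheaths.

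Cells were sorted into classes by fixed genes, none of them a semaphorin, neuropilin or plexin. Cells with at least 30 Scx molecules (unique molecular identifiers, UMIs) per 10000 were called Scx-high, and cells below that level with at least 5 UMIs over Ly6a, Cd34, Dpt, Lum and Col3a1 were called Scx-low fibroblasts. Immune-like, endothelial-like, mural-like (vessel wall), Schwann-like, muscle-like and haemoglobin-rich cells were set apart beforehand by their own markers, with thresholds set after the data had been looked at. The Scx-high class held 1148 wild-type and 220 mutant cells, which were 48.6% and 8.49% of all cells, and the Scx-low fibroblasts numbered 707 and 1818 (29.9% and 70.1%). The study describes ScxGFP-positive cells of mutant tendons at this age as newly recruited, and cells that had lost ScxGFP as derived from tenocytes. Ratios between the libraries therefore compare cells sorted by the same rule, which need not be the same kind of cell. There were 157 and 88 mural-like cells, 22 and 33 endothelial-like cells, 201 immune-like cells in each library and 54 Schwann-like cells in the mutant library. In the wild-type library 4 cells passed the Schwann list, but no Schwann marker was among their leading genes, so they were left unnamed and unused. The tenocyte markers that the sorting did not use (Tnmd, Fmod, Mkx, Kera, Thbs4 and Col11a1) were each detected in at least 10% of the Scx-high cells of either library. So were the fibroblast markers it did not use (Pdgfra, Pi16 and Clec3b) in the Scx-low fibroblasts. Detection in 10% of the cells did not by itself separate the classes. Of the 7 markers on the tenocyte list, 6 also reached that share in the Scx-low fibroblasts of each library. Of the 8 fibroblast markers, 3 (wild-type) and 6 (mutant) reached it in Scx-high cells, and 7 and 5 in mural-like cells. Near the threshold, 53 wild-type and 46 mutant cells had 20 to 40 Scx UMIs per 10000. Only 2 cell barcodes occurred in both libraries.

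The libraries held 9451606 (wild-type) and 8250248 (mutant) UMIs, with medians of 3866.5 and 2828 UMIs per cell, and the Scx-high cells were sequenced to nearly the same depth (medians 4282.5 and 4260). Levels are UMIs summed over the cells of a class per 1000000 UMIs of that class (CPM), where a 3′-end count needs no scaling for transcript length. Exact 95% intervals are given for counting error alone. No test was made, since each condition has a single library, and the genotype and everything else that differed between the 2 preparations cannot be told apart. A gene was called higher or lower when it had at least 50 UMIs over the 2 groups and differed 2-fold or more, and genes with that many UMIs are referred to as assessed. Tgfbr2 itself had 146 UMIs (30.6 CPM) in wild-type and 47 (46.4 CPM) in mutant Scx-high cells, a mutant over wild-type ratio of 1.51 (1.07 to 2.12), and in Scx-low fibroblasts the ratio was 0.977 (0.823 to 1.16). A 3′-end count does not read a deleted upstream exon, so Tgfbr2 did not check the labels, and every direction below rests on them. Mutant Scx-high cells also differed from wild-type ones in the markers of other cells. The summed level of the 8 fibroblast markers was 823 CPM in wild-type and 5826 CPM in mutant Scx-high cells, with 3 and 6 of the 8 detected in at least 10% of the cells, and that of the 9 mural markers was 301 and 1854 CPM, with 2 of 9 so detected in each and Higd1b at 0 in the wild-type cells. The 4 fibrocartilage markers went the other way, at 1721 and 915 CPM. The 7 Schwann markers summed to 5.45 and 34.5 CPM (Cdh19 at 0 in both) and the 7 muscle markers to 6.08 and 62.1 CPM (Pax7 at 0 in both). The 10 endothelial markers summed to 14.5 and 40.4 CPM (Tie1 at 0 in both, and Pecam1, Cdh5, Cldn5 and Kdr at 0 in the mutant), and the 13 immune markers to 29.8 and 26.6 CPM (Ptprc and Cd53 at 0 in both). On the mural list, Acta2 and Tagln did not set cells aside as mural-like, and the sum of that list is not split by marker here. The part of the markers of other cells in the ratios below was not tested.

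The ligand genes of the wild-type library were found mainly in Scx-high cells and Scx-low fibroblasts, whereas most UMIs of Nrp1, Nrp2 and Plxnd1 lay outside the Scx-high class. Of the UMIs of each gene in the wild-type library, 94.2% of those of Sema3b, 71.3% of Sema3a and 59.8% of Sema3d lay in Scx-high cells, while 60.9% of those of Sema3c lay in Scx-low fibroblasts. Only 17.2% of the Nrp1 UMIs, 18.8% of the Plxnd1 UMIs and 31.2% of the Nrp2 UMIs of that library were in Scx-high cells, but 57.8% of the Plxna1 UMIs were. The mutant library had fewer Scx-high cells, and there the Scx-high share was 28.3% for Sema3b, 20.8% for Sema3a and 8.16% for Sema3d. These shares follow the numbers of cells in each class as well as the level per cell. Over all genes, Scx-high cells held 4768381 of the 9451606 wild-type UMIs and 1013797 of the 8250248 mutant UMIs.

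**Figure D1:**
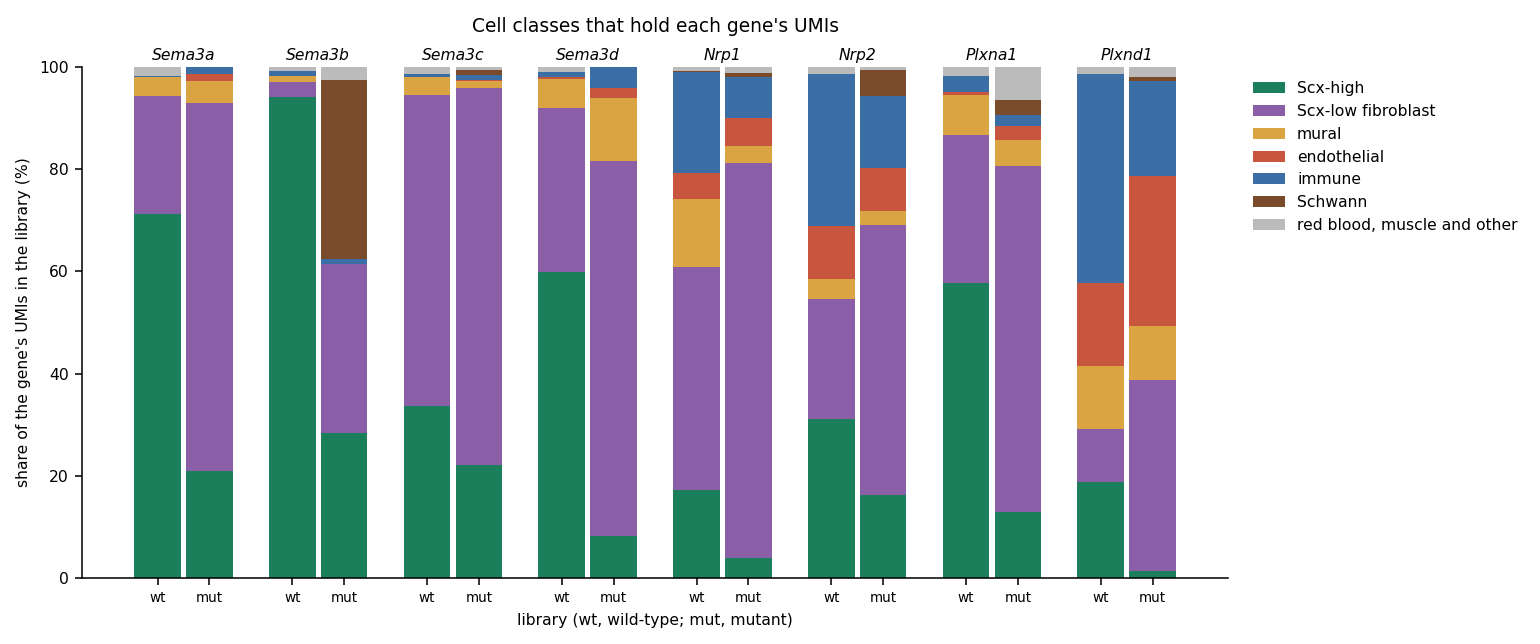
Share of each gene's UMIs (vertical axis, percent of the UMIs of that gene in a library) by cell class, with a bar for each gene in the wild-type (wt) and the mutant (mut) library and colours for the classes, named for their markers. Scx-high cells held 94.2% of the wild-type Sema3b UMIs and 28.3% of the mutant ones, and Schwann-like cells another 35.1% of the mutant ones.

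Sema3b, a secreted class 3 ligand, was the most abundant of the 8 genes in wild-type Scx-high cells. The study listed Sema3b among the genes most reduced between its wild-type tenocyte and mutant cell clusters, which are not the classes used here. The gene (ENSMUSG00000057969) lies on the minus strand at chr9:107597674-107609229 of GRCm38, with no annotated gene overlapping it. Its 2486 UMIs in the 1148 wild-type Scx-high cells gave 521 CPM (501 to 542), against 28.5 CPM (22.5 to 35.7) in the Scx-low fibroblasts of the same library, an 18.3-fold difference (14.6 to 23.3). In the mutant library the levels were 57.2 CPM (43.4 to 74.0, 58 UMIs) in Scx-high cells and 12.0 CPM (9.28 to 15.2, 68 UMIs) in Scx-low fibroblasts, and the ratio of these was 4.79 (3.31 to 6.90). Mutant Scx-high cells were thus 9.11-fold lower than wild-type ones (7.03 to 12.0), and mutant Scx-low fibroblasts were 2.39-fold lower (1.70 to 3.36). The intervals of the wild-type and mutant levels did not overlap in either class.

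The share of cells with a Sema3b UMI differed as well. After each cell was thinned to 1500 UMIs, 553 of 1064 wild-type Scx-high cells (52.0%, exact binomial interval 48.9 to 55.0%) had at least 1 Sema3b UMI, against 10 of 202 mutant Scx-high cells (4.95%, 2.40 to 8.92%). Without thinning the shares were 893 of 1148 (77.8%) and 44 of 220 cells. Up to 12 UMIs were counted in a wild-type Scx-high cell and 141 such cells held 5 or more, while no mutant Scx-high cell held more than 3. In the haemoglobin-rich cells, which give only a low bound on the background of free RNA, 1 of 77 thinned wild-type cells (1.30%) and 0 of 71 mutant cells had a Sema3b UMI. None of the 79 unthinned mutant cells had one either, which allows a share of up to 3.797%. The median depth of the haemoglobin-rich cells was 5682 and 4451 UMIs, but over 50% of their UMIs were haemoglobin and the medians were 93.5 and 47 genes. Their Scx level was 219 CPM (wild-type) and 33.0 CPM (mutant), against 3260 and 346 CPM in immune-like cells. Their shares may therefore understate the background. The thinned share in mutant Scx-low fibroblasts, 1.57% (1.03 to 2.30%), stood beside 0.833% of the immune-like cells of that library, and the 4.35% of wild-type Scx-low fibroblasts beside 3.75%. The intervals of both immune-like shares (0.0211 to 4.56% and 1.39 to 7.98%) hold the fibroblast shares.

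Few Sema3b UMIs were found in the other named wild-type classes. Immune-like cells of that library held 28 Sema3b UMIs (49.5 CPM), mural-like cells 29 (37.1 CPM) and endothelial-like cells 1. Per 1000 Scx UMIs, Sema3b had 20.3 UMIs in Scx-high cells, 15.2 in immune-like, 21.9 in mural-like, 9.35 in haemoglobin-rich and 68.3 in Scx-low fibroblast cells of that library, and 72.1 in the Scx-low fibroblasts of the mutant library against 1.996 in its Scx-high cells. Scx also set the 2 main classes. By that rule alone, values per Scx UMI are pushed down in Scx-high cells and up in Scx-low fibroblasts, so these 2 classes cannot be compared on them. In the mutant library mural-like and endothelial-like cells had no Sema3b UMI, where 3 counts would give 10.7 and 24.1 CPM, and immune-like cells had 2. Schwann-like cells of the mutant library were the exception. They held 72 Sema3b UMIs at 452 CPM (354 to 570), 7.91 times the level of the mutant Scx-high cells (5.52 to 11.4), and 42.9% of the thinned cells (27.7 to 59.0%, 42 cells) were positive. Per 1000 Scx UMIs they had 514 Sema3b UMIs. No named wild-type class was there to set beside them.

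Within the Scx-high class, the Sema3b level depended little on Scx above 100 Scx UMIs per 10000. Wild-type cells with 30 to 100, 100 to 200, 200 to 300 and 300 or more Scx UMIs per 10000 had 360.5, 559, 518 and 538 CPM. The mutant cells of the same Scx ranges had 39.7, 69.9, 91.0 and 51.7 CPM, so that the mutant over wild-type ratio stayed between 0.0961 and 0.176 at matched Scx. The summed Scx level, in cells chosen on Scx, was similar, with 25653 CPM in wild-type and 28666 CPM in mutant Scx-high cells. Its spread over cells was not. The median was 223.6 (wild-type) and 170.3 (mutant) Scx UMIs per 10000. The range of 30 to 100 held 134 of 1148 wild-type and 82 of 220 mutant cells. These counts can include reads of the ScxGFP reporter, so they need not give the level of the Scx gene itself. Col2a1, a cartilage collagen gene, marked a large part of the wild-type class, with 2 or more UMIs in 874 of 1148 wild-type but only 29 of 220 mutant Scx-high cells. Among cells with fewer than 2 Col2a1 UMIs, Sema3b was at 393 CPM in wild-type and 43.4 CPM in mutant cells, a ratio of 0.110 (0.0768 to 0.154) that was nearly that of the whole class. Among cells with 2 or more, the levels were 552 and 145 CPM and the ratio was 0.263 (0.161 to 0.408), resting on 20 mutant UMIs. In Scx-low fibroblasts with Pi16, a marker of adventitial fibroblasts, Sema3b was called lower in the mutant, at a ratio of 0.332 (0.172 to 0.607). Without Pi16 the ratio was 0.553 (0.348 to 0.891), below 1 but within 2-fold. Without Pi16 and with fewer than 2 Tnmd UMIs the ratio was 0.802 (0.352 to 1.99), from 21 mutant and 9 wild-type UMIs, too few for a call. The ratio of Scx itself was 0.397 (0.3635 to 0.433) in Scx-low fibroblasts and 0.106 (0.0889 to 0.126) in immune-like cells, where that of Sema3b was 0.0992 (0.0115 to 0.394). The part of free tenocyte RNA in the fibroblast level was not tested.

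**Figure D2:**
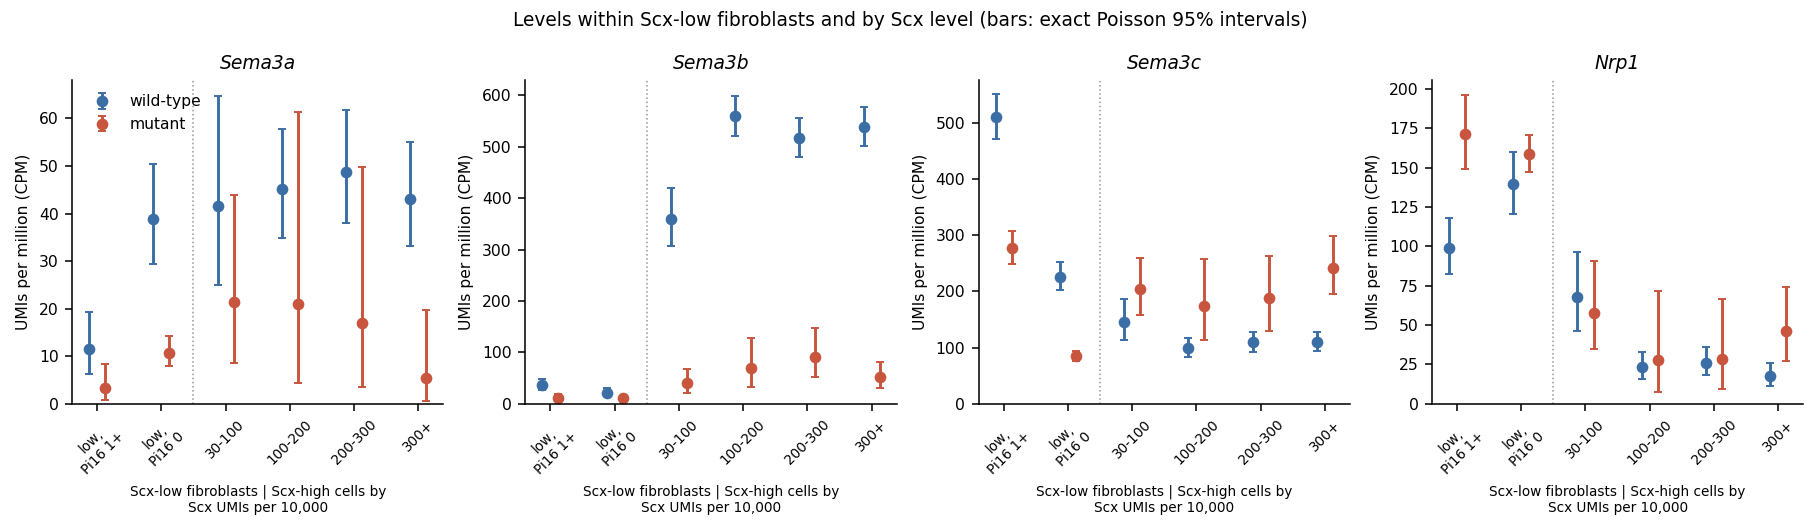
Levels of Sema3a, Sema3b, Sema3c and Nrp1 (vertical axes, UMIs per 1000000 UMIs) in Scx-low fibroblasts with and without a Pi16 UMI and in Scx-high cells by Scx UMIs per 10000 (horizontal axes), in the wild-type and the mutant library. Points are summed levels and bars exact Poisson 95% intervals. Sema3b was higher in the wild-type library at every Scx level, Sema3c was highest in wild-type fibroblasts with Pi16 (510 CPM), and Nrp1 was lower in all Scx-high groups than in Scx-low fibroblasts.

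Sema3a and Sema3d, ligands that act mainly through Nrp1, were lower in the mutant library in both main classes. Both genes lie on the plus strand of chromosome 5 of GRCm38, Sema3a (ENSMUSG00000028883) at chr5:13125414-13602565 and Sema3d (ENSMUSG00000040254) at chr5:12383385-12588948, and the third ligand of this chromosome, Sema3c (ENSMUSG00000028780), lies at chr5:17574281-17730268. Minor annotated transcripts overlap Sema3a and Sema3d, and none overlaps Sema3c. RefSeq gave promoter windows, from 250 bases before to 50 bases after a start site, for 6 of the 8 genes (GRCm38.p6), and those of the 3 ligand genes are shown because Sema3a and Sema3d were lower in mutant cells of both classes and Sema3c was not lower in Scx-high cells. Capitals mark CANNTG, the E-box word read by basic helix-loop-helix factors, a family to which Scx belongs. The Sema3a window starts inside the annotated gene, at a start site downstream of its first. The Sema3c window also starts inside its annotated gene, nearer to the gene's start, and the Sema3d window ends before its annotated gene begins.
Sema3a, chr5:13396534-13396833, plus strand: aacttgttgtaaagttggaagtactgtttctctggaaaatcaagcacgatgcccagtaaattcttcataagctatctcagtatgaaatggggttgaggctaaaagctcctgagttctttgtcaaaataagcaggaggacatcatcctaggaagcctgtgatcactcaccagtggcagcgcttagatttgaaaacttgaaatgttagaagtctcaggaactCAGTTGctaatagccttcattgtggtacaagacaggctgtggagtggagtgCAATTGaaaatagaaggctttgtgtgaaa
Sema3d, chr5:12382916-12383215, plus strand: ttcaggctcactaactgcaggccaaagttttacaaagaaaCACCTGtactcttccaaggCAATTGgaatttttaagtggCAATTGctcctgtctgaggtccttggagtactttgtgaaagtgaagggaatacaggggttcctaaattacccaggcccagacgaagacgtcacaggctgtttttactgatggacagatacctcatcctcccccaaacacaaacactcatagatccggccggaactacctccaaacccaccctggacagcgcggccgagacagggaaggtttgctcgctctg
Sema3c, chr5:17574566-17574865, plus strand: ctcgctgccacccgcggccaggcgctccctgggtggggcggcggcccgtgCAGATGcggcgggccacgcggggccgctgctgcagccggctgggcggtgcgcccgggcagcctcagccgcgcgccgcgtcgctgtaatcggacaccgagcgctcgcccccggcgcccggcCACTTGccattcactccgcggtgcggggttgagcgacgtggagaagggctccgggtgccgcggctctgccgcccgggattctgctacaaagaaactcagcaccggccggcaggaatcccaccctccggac
The windows held 2 (Sema3a), 3 (Sema3d) and 2 (Sema3c) E-box words, counted on both strands, which are the same for this palindromic word. Among all 32851 promoter windows of the table, 72.3% held at least 1, 39.6% at least 2 and 17.6% at least 3. CAGAC, a core word of Smad binding sites (Smads carry the TGFβ signal to the nucleus), was searched on both strands, did not overlap any E-box word, and occurred 2 times in the Sema3d window and not in those of Sema3a and Sema3c. At least 2 were found in 16.2% of all windows and at least 1 in 49.6%. The windows of Nrp1, Nrp2 and Plxnd1 held 0, 1 and 0 E-box words and 1, 0 and 0 CAGAC words. The matches describe these windows only.

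Sema3a had 216 UMIs (45.3 CPM, 39.5 to 51.8) in wild-type and 15 UMIs (14.8 CPM, 8.28 to 24.4) in mutant Scx-high cells, a 3.06-fold lower level in the mutant (1.82 to 5.57). In Scx-low fibroblasts the levels were 26.3 CPM (20.5 to 33.2) and 9.14 CPM (6.83 to 12.0), a 2.87-fold difference (1.98 to 4.20). The Scx-high level was above that of the Scx-low fibroblasts by a factor of 1.72 (1.31 to 2.29) in the wild-type library, and by 1.62 (0.847 to 2.92, an interval that holds 1) in the mutant. The gene was sparse, and 6.77% of thinned wild-type (5.33 to 8.45%) and 2.48% of thinned mutant Scx-high cells (0.809 to 5.68%) had a UMI, where 0.833% of the immune-like cells of the mutant library had one, within the interval of the mutant share. Within wild-type Scx-low fibroblasts, Sema3a was 38.8 CPM without and 11.5 CPM with Pi16, a ratio of 0.295 (0.152 to 0.537) for cells with Pi16, and in the mutant 10.8 and 3.26 CPM, a ratio of 0.303 (0.0794 to 0.828). Sema3a was thus lower in the fibroblasts with Pi16 in both libraries.

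Sema3d was at the same level in Scx-high cells (26.8 CPM, 22.4 to 31.9, 128 UMIs) and Scx-low fibroblasts (25.9 CPM, 20.1 to 32.8, 69 UMIs) of the wild-type library, with a ratio of 1.04 (0.768 to 1.41). The mutant levels were 3.95 CPM (1.075 to 10.1) from 4 UMIs in Scx-high cells and 6.33 CPM (4.43 to 8.76) from 36 UMIs in Scx-low fibroblasts. Mutant Scx-high cells were 6.80-fold lower (2.59 to 25.4) and mutant Scx-low fibroblasts 4.09-fold lower (2.70 to 6.30). In mural-like cells the direction was not the same, with 15.4 CPM in the wild-type and 21.4 CPM in the mutant library, but the 12 and 6 UMIs gave a ratio of 1.40 with an interval of 0.429 to 4.01. Thinned shares of Sema3d cells were 3.76% (wild-type) and 0.495% (mutant) in Scx-high cells and 3.90% and 0.786% in Scx-low fibroblasts, the mutant values being no higher than the 0.833% of the mutant immune-like cells.

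Sema3c, a ligand that can signal through both neuropilins and through Plxnd1, differed in opposite directions in the 2 classes. In the wild-type library it was at 356 CPM (334 to 379.5, 949 UMIs) in Scx-low fibroblasts and at 110.3 CPM (101.1 to 120.2, 526 UMIs) in Scx-high cells, 3.23-fold lower in the latter (2.90 to 3.60). In the mutant library the order was the other way, with 126 CPM (117 to 135, 715 UMIs) in Scx-low fibroblasts and 211 CPM (184 to 241, 214 UMIs) in Scx-high cells, a ratio of 1.68 (1.44 to 1.96). Compared between libraries, mutant Scx-low fibroblasts were 2.83-fold lower (2.57 to 3.13), and mutant Scx-high cells were 1.91-fold higher (1.62 to 2.25), just short of the 2-fold mark. The thinned shares gave the same orders, with 31.7% of wild-type and 12.2% of mutant Scx-low fibroblasts and 14.5% of wild-type and 21.8% of mutant Scx-high cells. The share in haemoglobin-rich wild-type cells was 1.30%, and in immune-like cells it was 2.50% (wild-type) and 3.33% (mutant).

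Among Scx-low fibroblasts, Sema3c was highest in cells with Pi16, in either library. Wild-type fibroblasts with at least 1 Pi16 UMI had 510 CPM against 226 CPM without, a ratio of 2.26 (1.97 to 2.59), and mutant ones had 276 against 84.2 CPM, a ratio of 3.28 (2.82 to 3.81). Pi16 cells made up 304 of 707 wild-type and 355 of 1818 mutant Scx-low fibroblasts, so the makeup of the class differed as well. Within cells with Pi16 the mutant over wild-type ratio was 0.542 (0.474 to 0.620), within cells without Pi16 it was 0.373 (0.321 to 0.434), and within cells with 2 or more UMIs of Tnmd, a tenocyte membrane gene, it was 0.434 (0.351 to 0.538). The mutant level was thus below the wild-type one in each of these parts of the class, though within 2-fold in cells with Pi16. Among Scx-high cells the mutant over wild-type ratio was 2.27 (1.76 to 2.94) in cells with fewer than 2 Col2a1 UMIs and 1.09 (0.631 to 1.77) in those with 2 or more, and by Scx level it ranged from 1.40 at 30 to 100 Scx UMIs per 10000, where the interval held 1, to 2.20 at 300 or more. Fibroblast markers were higher in mutant Scx-high cells too, as given above, and their part in the Sema3c level was not tested.

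**Figure D3:**
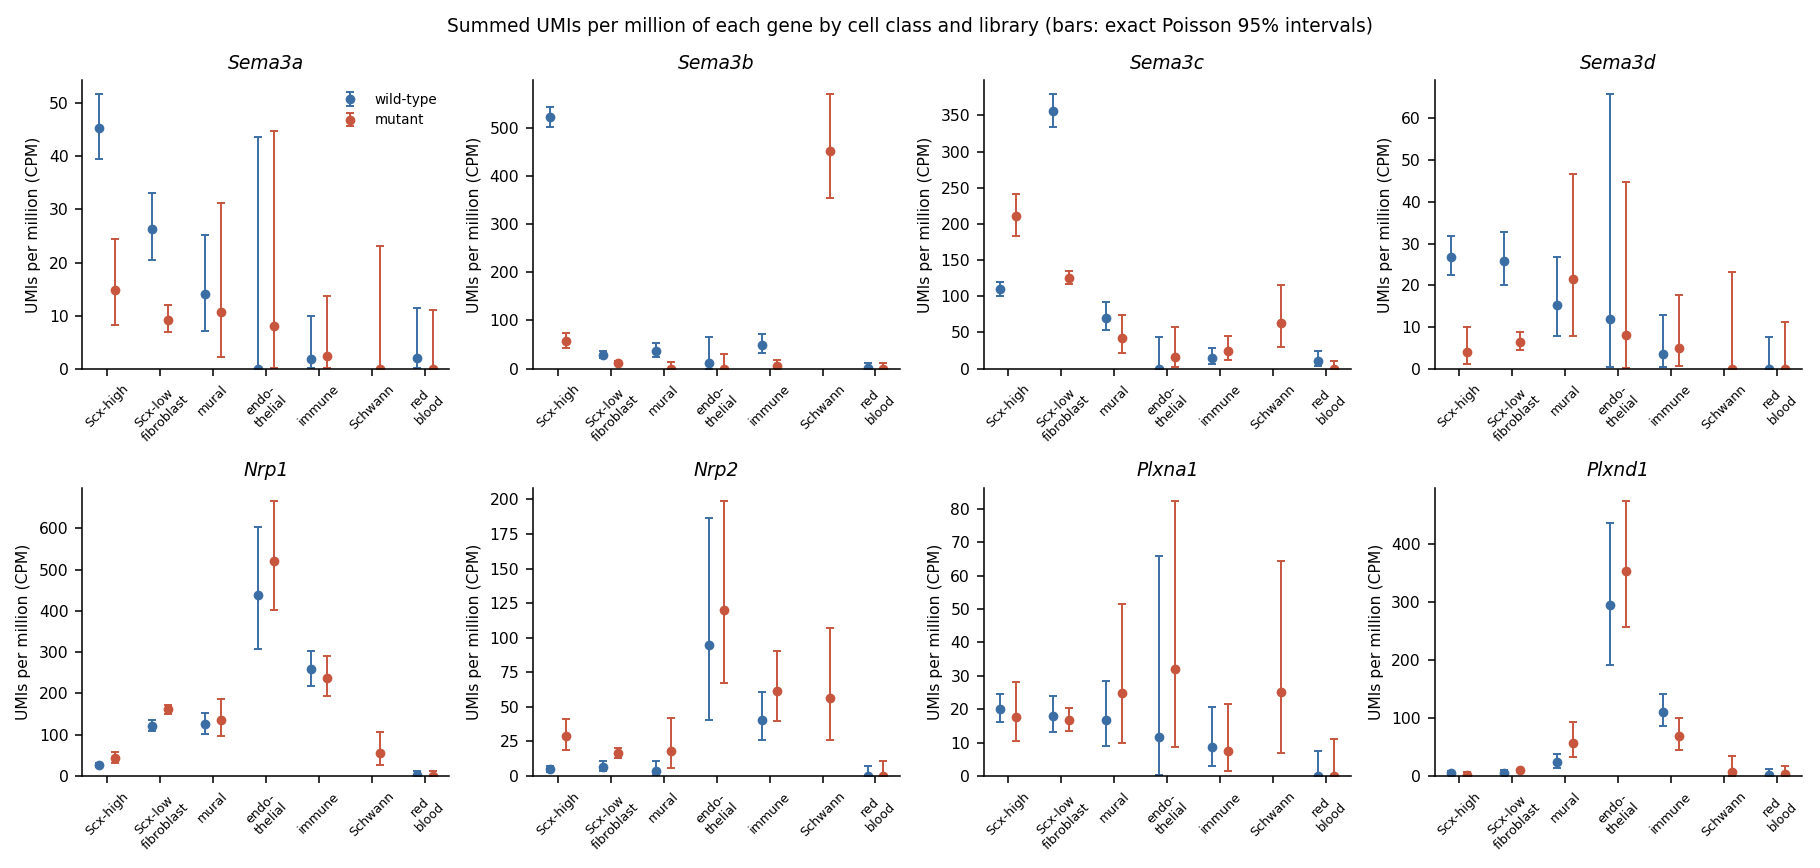
Level of each gene (vertical axes, UMIs per 1000000, a scale of its own in each panel) in the cell classes of the wild-type and the mutant library, with classes of fewer than 20 cells left out. Points are summed levels and bars exact Poisson 95% intervals, and the class names stand for cells chosen by markers. Among the named classes of the wild-type library the ligands were highest in Scx-high cells or Scx-low fibroblasts. In the mutant library Sema3b was highest in Schwann-like cells (452 CPM) and Sema3d in mural-like cells (21.4 CPM, 6 UMIs), and Nrp1, Nrp2 and Plxnd1 were highest in endothelial-like cells of either library.

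Nrp1, the neuropilin with the most UMIs here, was lower in the Scx-high cells than in Scx-low fibroblasts, mural-like, immune-like and endothelial-like cells of each library. The gene (ENSMUSG00000025810) is on the plus strand at chr8:128358604-128503363. In the wild-type library its level ran from 26.6 CPM (22.2 to 31.7, 127 UMIs) in Scx-high cells to 121 CPM (108 to 135) in Scx-low fibroblasts, 125 CPM (101.8 to 153) in mural-like, 258 CPM (218 to 304) in immune-like and 437 CPM (308 to 603) in endothelial-like cells. Fibroblasts and mural-like cells did not differ beyond their intervals, and the other neighbours in this order did. The mutant library had the same order with 44.4 CPM (32.4 to 59.4, 45 UMIs) in Scx-high cells, 136 CPM (96.0 to 186) in mural-like cells, 162 CPM (151 to 172) in Scx-low fibroblasts, 238 CPM (193 to 291) in immune-like and 522 CPM (403 to 665) in endothelial-like cells, except that mural-like cells and fibroblasts, whose intervals overlapped, changed places. Scx-high cells were 4.54-fold below the Scx-low fibroblasts in the wild-type (3.68 to 5.62) and 3.64-fold below them in the mutant library (2.70 to 5.02).

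The mutant over wild-type ratio of Nrp1 was 1.67 (1.16 to 2.36) in Scx-high cells and 1.34 (1.18 to 1.52) in Scx-low fibroblasts, both within 2-fold. The Scx-high value depended on which cells were counted. With cells of 2 or more Col2a1 or Acan UMIs left out, the log2 ratio went from 0.74 to -0.65, and among cells of 100 to 300 Scx UMIs per 10000 it was 0.19. At fewer than 2 Col2a1 UMIs the levels were 46.8 CPM in wild-type and 49.1 CPM in mutant cells, a ratio of 1.05 (0.670 to 1.64). Wild-type cells rich in Col2a1 had less Nrp1 (21.8 CPM) than the rest, a ratio of 0.466 (0.319 to 0.689). In Scx-low fibroblasts the ratio was 1.73 (1.38 to 2.18) in cells with Pi16 and 0.862 (0.670 to 1.12) in cells with 2 or more Tnmd UMIs. Immune-like, endothelial-like and mural-like cells gave Nrp1 ratios of 0.923 (0.707 to 1.202), 1.19 (0.785 to 1.84) and 1.08 (0.723 to 1.59), all with intervals that hold 1.

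Nrp2, the second neuropilin (ENSMUSG00000025969, plus strand, chr1:62703285-62818695), was scarce in tendon cells and higher in the mutant cells of both main classes. Wild-type Scx-high cells held 24 UMIs (5.03 CPM, 3.23 to 7.49) and Scx-low fibroblasts 18 (6.75 CPM, 4.003 to 10.7). The mutant levels were 28.6 CPM (19.2 to 41.1, 29 UMIs) in Scx-high cells and 16.5 CPM (13.4 to 20.2, 94 UMIs) in Scx-low fibroblasts, giving ratios of 5.68 (3.19 to 10.2) and 2.45 (1.47 to 4.31). The Nrp2 ratio in Scx-high cells rests on few molecules, and after thinning, with 4 of 202 mutant (1.98%) and 10 of 1064 wild-type cells (0.940%) positive, the log2 ratio fell from 2.51 to 1.08. In the mutant, 15 of the 29 UMIs came from the 65 cells with 300 or more Scx UMIs per 10000, whose median depth was 5971 UMIs. Endothelial-like cells again had the highest level, 94.6 CPM (40.8 to 186) in the wild-type and 120.4 CPM (67.4 to 199) in the mutant library, followed by immune-like cells with 40.7 and 61.4 CPM and mutant Schwann-like cells with 56.6 CPM. These neighbours did not differ beyond their intervals. In mutant Scx-low fibroblasts Nrp2 was lower with Pi16 (8.15 CPM) than without (18.8 CPM), a ratio of 0.433 (0.2004 to 0.837). The mutant over wild-type ratio was 3.02 (1.52 to 6.83) in Scx-low fibroblasts without Pi16 and 1.11 (0.404 to 3.08) in those with Pi16, and it was 5.05 (1.62 to 25.4) at 2 or more Tnmd UMIs and 1.78 (0.984 to 3.42) below that, so 2 of these parts had intervals that hold 1.

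The plexin genes, which encode the signalling partners, had no member called higher or lower between the libraries in either main class taken as a whole. Plxna1 was assessed in both classes and Plxnd1 only in Scx-low fibroblasts. Among all genes assessed, 5.71% were lower and 10.5% higher in mutant Scx-high cells, and 4.3% and 4.21% in Scx-low fibroblasts. Most genes were thus not called either. Plxna1 (ENSMUSG00000030084, minus strand, chr6:89316314-89362620), a class A plexin, had 20.1 CPM (16.3 to 24.6, 96 UMIs) in wild-type and 17.8 CPM (10.5 to 28.1, 18 UMIs) in mutant Scx-high cells, a ratio of 0.882 (0.501 to 1.47), and 18.01 and 16.7 CPM in Scx-low fibroblasts, a ratio of 0.927 (0.649 to 1.34). These intervals leave room for a mutant level 1.99-fold lower in Scx-high cells. Plxna1 in mural-like cells was at 16.6 and 24.98 CPM, and in immune-like cells at 8.84 and 7.37 CPM. The immune-like level was past 2-fold below the Scx-high cells (ratio 0.439, 0.139 to 1.06) and the Scx-low fibroblasts (ratio 0.491, 0.152 to 1.23) of the wild-type library and the Scx-low fibroblasts of the mutant library (ratio 0.441, 0.0894 to 1.33), all with intervals that hold 1. Plxnd1 (ENSMUSG00000030123, minus strand, chr6:115954811-115995005), the plexin best known from vessels, was nearly absent from Scx-high cells, with 29 UMIs (6.08 CPM, 4.07 to 8.73) in wild-type and 2 UMIs (1.97 CPM, 0.239 to 7.13) in mutant cells, a ratio of 0.324 (0.0375 to 1.28) from too few UMIs for a call. It had 16 UMIs (6.003 CPM) in wild-type and 56 UMIs (9.84 CPM) in mutant Scx-low fibroblasts, a ratio of 1.64 with an interval of 0.927 to 3.06. Among those without Pi16, Plxnd1 was called higher in the mutant, with a ratio of 2.48 (1.06 to 7.10) from 46 mutant and 6 wild-type UMIs. With Pi16 the ratio was 0.996 (0.372 to 2.67), from 10 UMIs in each library, too few for a call. In endothelial-like cells Plxnd1 stood at 296 CPM (191 to 436) and 353 CPM (257 to 474), 48.6-fold above the Scx-high cells in the wild-type library (27.3 to 85.9), and in immune-like cells at 111 CPM (85.6 to 143) and 68.8 CPM (45.7 to 99.4). Mural-like cells had 24.3 CPM (14.6 to 38.0) and 57.1 CPM (32.6 to 92.7), a ratio of 2.35 (1.13 to 4.82) from 16 mutant and 19 wild-type UMIs, too few for a call.

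Across the assessed genes, 3 of the 7 assessed members (Sema3a, Sema3b and Sema3d) were lower in mutant Scx-high cells and 1 (Nrp2) was higher, where 5.71% of all 7299 genes assessed were lower and 10.5% higher. Sema3c, Nrp1 and Plxna1 were within 2-fold, and Plxnd1 was below 50 UMIs. The median log2 ratio was -0.18 for the 7 members and 0.27 for all genes assessed. In Scx-low fibroblasts all 8 members were assessed. Sema3a, Sema3b, Sema3c and Sema3d were lower and Nrp2 was higher, against 4.3% lower and 4.21% higher among 9163 genes, with medians of -0.68 for the members and -0.03 for all genes. The part of free tenocyte RNA in the Sema3b level of these cells was not tested. In the whole libraries Sema3a, Sema3b and Sema3d were lower and Nrp2 higher, against 3.98% lower and 6.14% higher among 10998 genes, but there the class sizes move with the levels, and fewer cells of a class cannot be told apart from less RNA per cell. Immune-like, endothelial-like and mural-like cells had 2 members each with enough UMIs, none past 2-fold (Nrp1 and Plxnd1 in the first and second, Nrp1 and Sema3c in the third). There the shares of genes past 2-fold higher and lower were 3.8% and 3.76%, 3.95% and 4.22%, and 3.83% and 3.3%. The ratio of Plxnd1 in immune-like cells was 0.618 (0.381 to 0.978). All these comparisons use the same 2 libraries, and the members were chosen with earlier results of these data known.

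**Figure D4:**
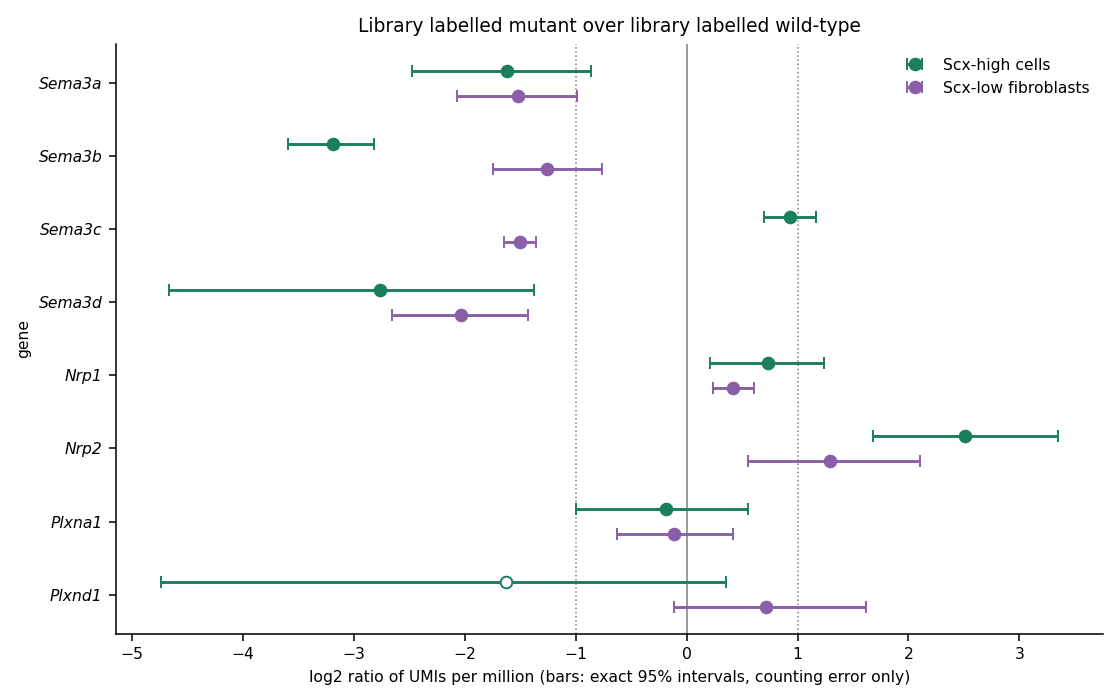
Log2 ratio of the mutant over the wild-type level (horizontal axis) of each gene in Scx-high cells and in Scx-low fibroblasts, with exact 95% intervals for counting error as bars, dotted lines at 2-fold and an open point for the gene under 50 UMIs. Sema3a, Sema3b and Sema3d lie left of the lower 2-fold line in both classes, Nrp2 lies right of the upper one in both, and Sema3c lies on opposite sides of 0.

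Between the classes of a library, Sema3b was higher and Sema3c and Nrp1 were lower in Scx-high cells than in Scx-low fibroblasts of the wild-type, out of 6 members assessed, where 5.02% of 8383 genes were higher and 18.1% lower. Sema3a, Sema3d and Plxna1 were within 2-fold. The median gene stood at a log2 ratio of -0.43 in this comparison, and relative to that median the log2 ratio of Sema3a was 1.22 in place of 0.79, past the 2-fold mark. In the mutant library Sema3b was higher and Nrp1 and Plxnd1 were lower, out of 7 assessed, against 4.69% and 11.7% of 8466 genes. Plxnd1 there rests on 2 UMIs in Scx-high cells, with a ratio of 0.200 (0.0237 to 0.759).

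**Figure D5:**
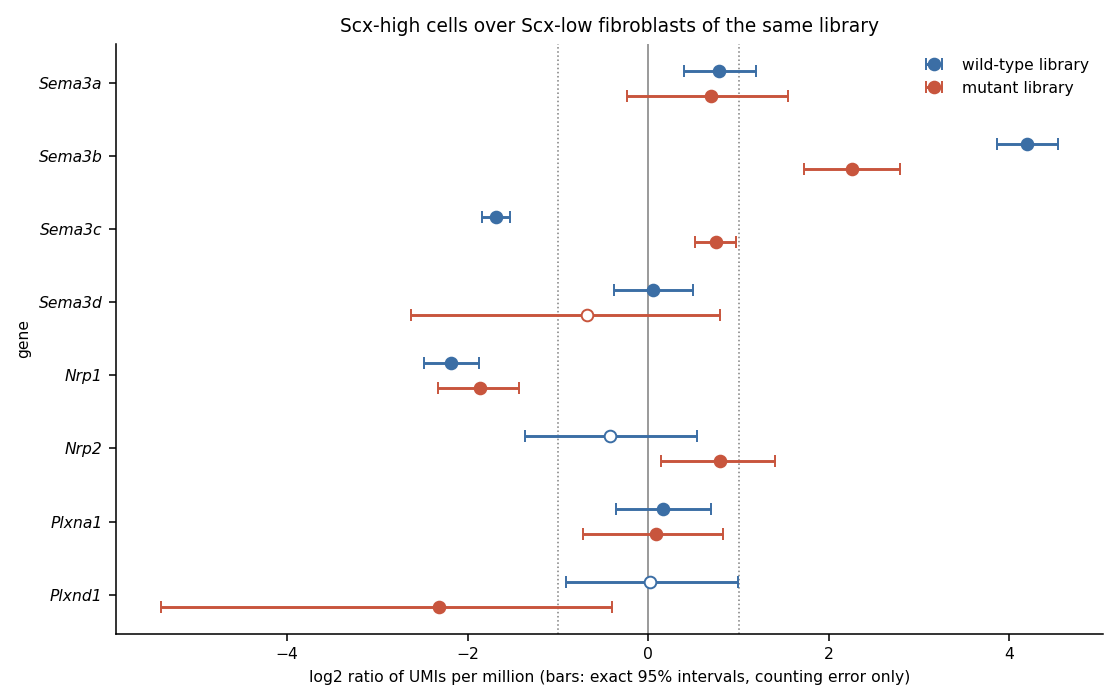
Log2 ratio of the level in Scx-high cells over that in Scx-low fibroblasts of the same library (horizontal axis) for each gene in the wild-type and the mutant library, with exact 95% intervals for counting error as bars, dotted lines at 2-fold and open points for genes under 50 UMIs. Sema3b is right of the upper 2-fold line and Nrp1 left of the lower one in both libraries, and Sema3c changes sides.

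Without thinning, a ligand and a neuropilin UMI were counted together in 109 of 1148 wild-type Scx-high cells (9.49%) and 137 of 707 Scx-low fibroblasts (19.4%). The mutant library had 29 of 220 (13.2%) and 164 of 1818 (9.02%). Thinning turned the order of the Scx-high cells, with 31 of 1064 wild-type (2.91%, 1.99 to 4.11%) and 3 of 202 mutant cells (1.49%, 0.307 to 4.28%). These intervals overlapped. The thinned Scx-low fibroblasts had 5.26% (wild-type) and 2.96% (mutant). A neuropilin UMI was found in 10.9% of the wild-type Scx-high cells with a ligand UMI and in 10.7% of those without, and in 31.3% and 35.3% of the Scx-low fibroblasts. After thinning, 667 of 1064 wild-type Scx-high cells (62.7%) and 57 of 202 mutant ones (28.2%) had a UMI of at least 1 of the 4 ligands, and in Scx-low fibroblasts the shares were 39.0% and 15.5%. A neuropilin and a plexin UMI (Plxna1 or Plxnd1) occurred together in 13 of 1148 wild-type and 4 of 220 mutant Scx-high cells without thinning. Of these wild-type cells, 10.4% of those with and 9.97% of those without a neuropilin UMI had a plexin UMI. After thinning the pair occurred in 0 of the 1064 wild-type and 1 of the 202 mutant Scx-high cells. The thinned shares were 0.901% and 1.09% in Scx-low fibroblasts, but 5 of 21 and 8 of 29 endothelial-like cells (23.8% and 27.6%) had the pair. Also after thinning, 26.5% of the wild-type immune-like cells with a neuropilin UMI had a plexin UMI, against 10.8% of the others. In the mutant library these shares were 10.3% and 12.3%, and in its endothelial-like cells 50% and 61.5%. Without thinning these mutant shares were 15.2% and 13.1% in immune-like and 61.5% and 57.1% in endothelial-like cells. In thinned wild-type Scx-high cells, Sema3c was found in 14.6% of cells with and 14.3% of cells without a Sema3b UMI. Without thinning these shares were 36.4% and 24.3%. These shares depend on the capture of each molecule, and a cell without a UMI may still express the gene.

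Other genes of the pathway were taken from lists of 16 other semaphorins, 7 other plexins, 9 co-receptors, 8 neuropilin-binding growth factors and their receptors, and 22 intracellular effectors, chosen with earlier results of these data known. Of the other semaphorins 4 had enough UMIs in the Scx-high comparison, and 3 of these were lower in the mutant and none higher, beside 5.71% lower and 10.5% higher among all genes assessed. Sema3f, the classic Nrp2 ligand, went from 142 UMIs (29.8 CPM) in wild-type to 1 UMI (0.986 CPM) in mutant Scx-high cells, a ratio of 0.0331 (0.000833 to 0.188). Sema6a, a transmembrane semaphorin, was at 62.5 and 21.7 CPM (ratio 0.347, 0.214 to 0.536), and Sema6c at 16.8 and 7.89 CPM (ratio 0.470, 0.196 to 0.972). In Scx-low fibroblasts 7 of the list were assessed and 2 were lower (4.3% of all genes), Sema3e, the direct ligand of Plxnd1, at 15.8 and 1.93 CPM (ratio 0.123, 0.0570 to 0.242) and Sema3f at 11.3 and 5.45 CPM (ratio 0.484, 0.283 to 0.828). Within the wild-type library Sema6a (ratio 4.16, 2.99 to 5.95) and Sema3f (ratio 2.65, 1.77 to 4.06) were higher in Scx-high cells than in Scx-low fibroblasts, 2 of 5 assessed, with none lower, beside 5.02% higher and 18.1% lower among all genes. Of the other plexins, 1 was assessed between the libraries in each main class and lay within 2-fold.

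Among the effectors, 16 were assessed in Scx-high cells and 3 were higher in the mutant and none lower, beside 10.5% and 5.71% of all genes, with a median log2 ratio of 0.73 for the effectors and 0.27 for all genes. They were Dpysl3, a member of the collapsin response mediator family that binds the cytoskeleton downstream of semaphorins, at 95.4 CPM in wild-type and 342 CPM in mutant cells (ratio 3.59, 3.11 to 4.13), the GTPase gene Rras at 28.9 and 74.0 CPM (ratio 2.56, 1.90 to 3.41), and the small GTPase gene Rnd3 at 7.34 and 19.7 CPM (ratio 2.69, 1.47 to 4.79). In the wild-type library 8 of 17 assessed effectors were lower in Scx-high cells than in Scx-low fibroblasts and none was higher, beside 18.1% and 5.02% of all genes, with a median log2 ratio of -0.99 for the effectors and -0.43 for all genes. Fyn, a kinase bound by plexin complexes, had 10.5 against 52.5 CPM there (ratio 0.200, 0.142 to 0.278), and Rras had 28.9 against 111 CPM (ratio 0.261, 0.212 to 0.321). The mutant library had 2 higher and 2 lower of 17, beside 4.69% and 11.7% of all genes. The median log2 ratio there was 0.07 for the effectors and -0.12 for all genes. In Scx-low fibroblasts 1 of 18 effectors was past 2-fold between the libraries, beside 4.3% lower and 4.21% higher among all genes. It was Dpysl2, which was lower in the mutant at 9.84 against 30.02 CPM (ratio 0.328, 0.229 to 0.467).

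Of the co-receptors, Chl1 and Cd72 were higher and Robo1 was lower in mutant Scx-low fibroblasts, out of 5 assessed, beside 4.21% higher and 4.3% lower among all genes. The 7 Schwann markers summed to 3.002 CPM in wild-type and 31.8 CPM in mutant Scx-low fibroblasts, and their part in these ratios was not tested. Chl1, an adhesion molecule that partners Nrp1, had 1.13 CPM (3 UMIs) in wild-type and 13.9 CPM (79 UMIs) in mutant cells, a ratio of 12.3 with an interval of 4.07 to 61.1. Cd72, a receptor described for the semaphorin Sema4d on immune cells, had 3.002 and 16.3 CPM (ratio 5.45, 2.65 to 12.98). Robo1, a guidance receptor, had 24.4 and 11.4 CPM (ratio 0.468, 0.327 to 0.671). None of 3 assessed co-receptors was past 2-fold between the libraries in Scx-high cells. In the wild-type library Met, a receptor tyrosine kinase that partners class B plexins, was higher in Scx-high cells than in Scx-low fibroblasts (ratio 7.71, 3.15 to 24.5) and Robo1 was lower (ratio 0.232, 0.142 to 0.369), out of 4 assessed. Among all genes 5.02% were higher and 18.1% lower in that comparison. In the growth factor list, 2 genes were assessed in Scx-high cells, where 5.71% of all genes were lower and 10.5% higher. Vegfc was lower in the mutant, with 48 wild-type UMIs (10.1 CPM) and only 3 mutant UMIs (2.96 CPM, ratio 0.294, 0.0586 to 0.912). In Scx-low fibroblasts Pgf was lower (ratio 0.173, 0.113 to 0.259) and Vegfa higher (ratio 2.20, 1.35 to 3.77) in the mutant. These were 2 of 4 assessed, beside 4.3% lower and 4.21% higher among all genes.

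The genes whose levels were most like those of each member were sought over the 15 groups of cell class and library with at least 20 cells, by Pearson's r of log2(CPM + 10) among 7182 genes. The 15 points share 2 libraries, and their depths differ, so r is given as a description only. The 5 nearest genes of Sema3b were Phgdh (r = 0.91), an enzyme of serine synthesis, Serinc5, Yjefn3, Ooep and Ppm1l (r = 0.83). Those of Sema3a were Fam180a (r = 0.91), the BMP family gene Bmp3, the BMP antagonist gene Chrd, Gm17455 and Dip2c (r = 0.87). Sema3d was nearest to Rusc2 (r = 0.86), Sema3a itself (r = 0.84), Cox4i2, Tacc2 and Hivep2 (r = 0.82). Sema3c was nearest to Tsku (r = 0.95) and Vcan (r = 0.95), both secreted proteoglycan genes, Boc, Medag and Tmem45a (r = 0.93). Nrp1 was nearest to Psme1 (r = 0.96), the interferon gamma receptor gene Ifngr1, Wdr83, Eif2ak2 and Hpcal1 (r = 0.95). The first of the 5 for Nrp2 was Adipor1 (r = 0.91), for Plxna1 Ankrd54 (r = 0.97) and for Plxnd1 Smagp (r = 0.94).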

How the data were processed

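The data were 1 wild-type and 1 mutant library of P7 limb tendon cells made with the 10x Genomics 3′ kit. Reads were mapped to mm10, and the authors deposited UMI counts per gene and cell, as whole numbers and not normalized. The study's methods name Cell Ranger 2.0 at default settings, whereas the submitters' processing notes name Cell Ranger 1.2.0. All 2364 and 2592 deposited barcodes were used, and doublets (26 and 8 called by Scrublet, with an expected rate of 2%) stayed in.

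Haemoglobin-rich cells (over 50% of UMIs) were set aside first. Cells with at least 3 UMIs over at least 3 genes of an immune, endothelial, mural, Schwann or muscle list (2 genes for the mural list, Acta2 and Tagln not counted) came next, then Scx-high cells and Scx-low fibroblasts. These numbers of genes were set after the data had been seen. The members and gene lists were chosen with earlier results of these data known. Scx counts can include reads of the ScxGFP reporter.

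UMIs were summed per class and library. Levels have exact Poisson, shares exact Clopper-Pearson, and ratios exact conditional binomial 95% intervals. Limits for a count of 0 use 3 counts. All cover counting error only. The text names the 8 members in all classes, of each pathway list at most 4 genes past 2-fold with at least 50 UMIs, by size of the ratio, and for each member the 5 genes with the highest r, or their first, among genes with at least 200 UMIs. Subdivisions by Pi16, Tnmd, Col2a1 and Scx level used thresholds of 1, 2 and 2 UMIs and the Scx ranges given. Other settings tried were Scx thresholds of 10 and 60 per 10000, 3 or 10 fibroblast UMIs, 5 marker UMIs, cells with 500 genes and under 10% mitochondrial UMIs, doublets removed, means of scaled cells, totals without the 20 most abundant genes, centring on the median gene ratio, thinning to 1500 UMIs per cell (shallower cells left out), and a minimum of 20 UMIs or none. Vegfd was not found under that symbol and was not analysed. Coordinates are from GENCODE M21 on GRCm38 (mm10), and promoter windows from RefSeq. Python 3.11.15, NumPy 2.4.6, SciPy 1.17.1 and pandas 2.3.3 were used, with Scrublet as run in scanpy 1.11.5.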

Additional observations from a re-analysis of the deposited data

Results flagged for a closer look

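Sema3c differed between the libraries in opposite directions in the 2 main classes, with mutant over wild-type ratios of 1.91 in Scx-high cells and 0.353 in Scx-low fibroblasts. Seen from the other side, the Scx-high over Scx-low ratio of Sema3c was 0.310 among wild-type cells and 1.68 among mutant cells. With 1 library per condition the difference between these ratios was not tested. Both pairs rest on the same 4 sums of 526, 949, 214 and 715 UMIs, so they are 1 pattern and not 2.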

How the results depend on the processing

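The members' ratios between libraries in the 2 main classes, and between these classes in each library, were recomputed under 13 other settings and under 3 more chosen after seeing the data (cycling cells, cells of 2 or more Col2a1 or Acan UMIs left out, and only Scx-high cells of 100 to 300 Scx per 10000). Thinning gave no Plxnd1 value where no UMI was left. No member past 2-fold changed direction under any of them. The settings that moved a count of members past 2-fold did so by 1 member each, and the cause was not tested unless named. Not every such move is named below, and no share over all genes is given for these settings. Among lower members in Scx-high cells (mutant over wild-type), Plxnd1 (2 mutant and 29 wild-type UMIs, ratio 0.324) joined at a minimum of 20 UMIs or none. Sema3d had only 2 mutant and 26 wild-type UMIs in cells with fewer than 2 Col2a1 UMIs, too few for a call. After thinning, 1 of 202 mutant and 40 of 1064 wild-type Scx-high cells had a Sema3d UMI. Higher members in mutant over wild-type Scx-high cells numbered 1, and 2 at a Scx threshold of 60 per 10000 (Sema3c joined, log2 ratio 1.06). They numbered 0 after thinning, without cycling cells, without cells of 2 or more Col2a1 or Acan UMIs, and among cells of 100 to 300 Scx per 10000, because fewer than 50 Nrp2 UMIs were left. Thinning also left 0 higher members in Scx-low fibroblasts (mutant over wild-type), and, in the mutant library, 0 higher and 1 lower member for Scx-high over Scx-low fibroblasts. For the wild-type library the last comparison gave 2 higher members without the 20 most abundant genes in the total, after centring on the median gene ratio and without cells of 2 or more Col2a1 or Acan UMIs. In the mutant library it gave 2 without those cells and among cells of 100 to 300 Scx per 10000. The log2 ratio of Sema3b in Scx-high cells, mutant over wild-type, ranged from -3.80 to -2.72, and that of Sema3c from 0.67 to 1.06. In Scx-low fibroblasts Sema3c ranged from -1.62 to -1.47. Leaving out a replicate was not possible with 1 library per group. No paired analysis was possible because each group is 1 library. Depth limits Nrp2, Plxna1, Plxnd1 and mutant Sema3d, whose UMIs in Scx-high cells were few.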
